A study of Rattus norvegicus with 2 samples.

Results

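Light touch was set against no stimulus in the rat hypothalamus by an indirect route, since no array held both. Every array paired the RNA of tickled rats, in the dye Cy5, with that of a control group in Cy3. The control group was the unstimulated rats on 1 array and the lightly touched rats on the other. For each probe with a ratio on both arrays, the log2 ratio of the light-touch array was subtracted from that of the other array. A gene's value was the median of these differences over its probes with 1 gene symbol. Of 12092 genes with a value anywhere in the series, 11525 had at least 1 such like probe, and 29476 of 44290 probes had both ratios. The difference equals the log2 fold of light touch over no stimulus if the deposited ratios are tickled over control and if both arrays carried RNA of the same tickled animals. The first is likely, since tickled RNA carried Cy5 each time and such ratios are commonly Cy5 over Cy3. The second is not stated in the labels. If the ratio ran the other way, each "higher" below becomes "lower" and each order of the 3 groups is turned round.

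All groups were male Wistar rats that entered the study at 21 days of age, after weaning, and lived alone behind screens that hid them from each other. Tickling, which imitates rough-and-tumble play and evokes calls near 50 kHz, and light touch, the handling control without that response, were given on weekdays over 4 weeks, as 2 sets of 4 cycles of 15 s rest and 15 s stimulation. The remaining group received no stimulus. The labels give 4 animals per condition and 1 replicate per array, and do not say whether RNA was pooled. Analysed here were 2 arrays, 1 per comparison. The labels name no genetic modification or drug.

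The hypothalamus lies at the base of the forebrain and makes the peptides that govern the pituitary, feeding, water balance, reproduction and stress. Directly above it lies the thalamus, which relays sensory signals, touch included, to the cortex. Above and behind the thalamus are the habenula, whose medial part is known for nicotinic receptors, and the pineal gland, which makes melatonin. Each of these regions has transcription factors and transmitter genes by which it can be recognised in a block of tissue. In such a block, a larger share of cells of a type and more RNA per cell cannot be told apart. The deposited values are ratios, so they give no level, and whether a marker was near background in a group could not be read from them.

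Most genes lay close to 0. The median difference was 0.00 and its SD over genes was 0.23 log2 units, with 97.8% of genes within 1.5-fold. There was 1 array per comparison, so no p-value was computed, variation between animals was not measured, and "higher" and "lower" describe size alone. Like probes of the same gene spread by 0.147 log2 units in the difference (pooled SD over 4148 genes with 2 or more), or 1.11-fold. This was below their spread in either ratio, 0.16 against no stimulus and 0.17 against light touch. A set of 27 genes carried 8 or more like probes, and their SD ran from 0.03 to 0.20 with a median of 0.07.

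Differences were uneven in direction. In light touch, 68 genes were 2-fold or more higher (0.59% of genes) and 8 were 2-fold or more lower (0.0694%). At 1.5-fold the counts were 179 higher (1.55%) and 74 lower (0.642%). Overall 48.7% of genes had a difference above 0 and 48.3% one below 0, so the excess of higher genes lay in the tail. Of the 68, 59 rested on 1 like probe, and of the other 9, 7 had every like probe past 2-fold. Tickled RNA lay between the other groups, whichever way the ratio runs, for 64 of the 68, that is, with a ratio above 1 on the no-stimulus array and below 1 on the other. It did so for 4 of the 8 lower genes. Choosing genes by a large difference of the 2 ratios itself favours ratios on opposite sides of 1. The share over all genes was not counted, so the 64 are no result about tickled rats.

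**Figure D1:**
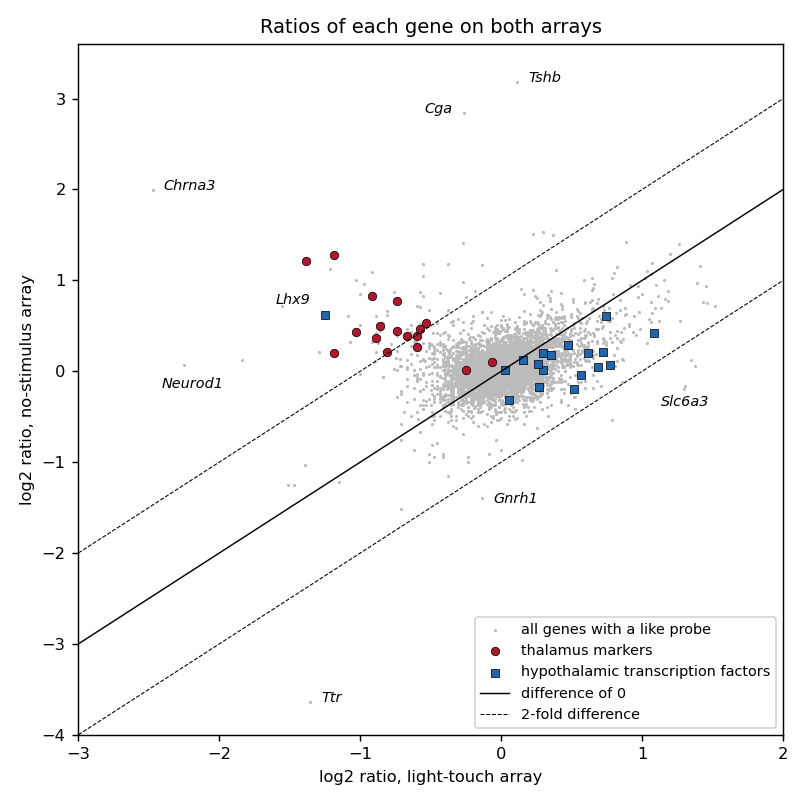
Log2 ratio of each gene on the light-touch array (x axis) against that on the no-stimulus array (y axis), as medians over like probes, with the solid line at a difference of 0 and dashed lines at 2-fold. Thalamus markers (red circles) lie above the solid line with most past the upper dashed line, and hypothalamic transcription factors (blue squares) lie below it except Lhx9, at 1.87.

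The gene with the highest difference was Chrna3, the alpha-3 subunit of the nicotinic acetylcholine receptor. Its ratio was 3.99 against no stimulus and 0.18 against light touch, a difference of 4.47, or 22.2-fold. It was thus far above 1 on the first array and far below 1 on the second, from a single like probe. Shox2, a transcription factor of the thalamus, had ratios of 2.32 and 0.38 and a difference of 2.60, and its 2 probes gave 2.49 and 2.71. The protein kinase C isoform Prkcd, abundant in thalamic relay neurons, had ratios of 2.42 and 0.44 and a difference of 2.46. Grifin, a galectin-related protein first known from the lens, had 2.18 and 0.43. Ramp3, which modifies calcitonin-family receptors, had 2.01 and 0.49. These 5 genes were the ones at 2-fold or more from 1 on both arrays in opposite directions.

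Some other high genes stood away from 1 on mainly 1 array. Neurod1, a transcription factor of pineal cells and of neurons, had ratios of 1.05 and 0.21, and the serotonin receptor Htr5b 1.09 and 0.28, so for differences of 2.32 and 1.96 the light-touch ratio was the one far from 1. The pituitary hormone subunits Tshb and Cga showed the reverse, with 9.08 and 7.18 against no stimulus and 1.08 and 0.83 against light touch. Slc17a7, the vesicular glutamate transporter of cortex and thalamus, had 1.64 and 0.34 on its like probe, past 1.5-fold on both arrays. A further probe of Slc17a7 had a value only against light touch, 0.28. The actin-binding Nexn, with ratios of 2.13 and 0.53, and the phosphatase Ppm1j, with 1.80 and 0.50, lay past 1.5-fold on both arrays, as did 18 of the 68 genes in all. For 19 only the ratio against no stimulus did so, for 27 only that against light touch, and for 4 neither.

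At the low end the difference was smaller. Transthyretin (Ttr), a carrier of thyroid hormone made by the choroid plexus, had ratios of 0.08 and 0.39 and a difference of -2.29, or 4.88-fold lower in light touch. Rounding to 2 decimals alone allows 4.53 to 5.27-fold. Ttr was low on both arrays, so if the ratios are tickled over control, no stimulus had most, light touch less and tickling least. With control over tickled the order is tickling most, light touch less and no stimulus least. Gnrh1 (gonadotropin-releasing hormone), with 0.38 and 0.91, was low against no stimulus alone. The dopamine transporter Slc6a3, with 0.89 and 2.47, the laminin chain Lama1, with 1.04 and 2.59, and the serine protease Prss27, with 1.09 and 2.54, were high against light touch alone. Ripk3, a kinase of necroptosis, had 0.69 and 1.72. Dio3, which inactivates thyroid hormone, had 0.87 and 2.46 on its like probe and a difference of -1.50, whereas another probe had only a no-stimulus value, 0.21. With each array's own probes the difference of Dio3 was -2.52. The potassium channel subunits Kcnj4 and Kcng1, at -0.98 and -0.94, fell just short of 2-fold, and Avp, at -1.12, just passed it.

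**Figure D2:**
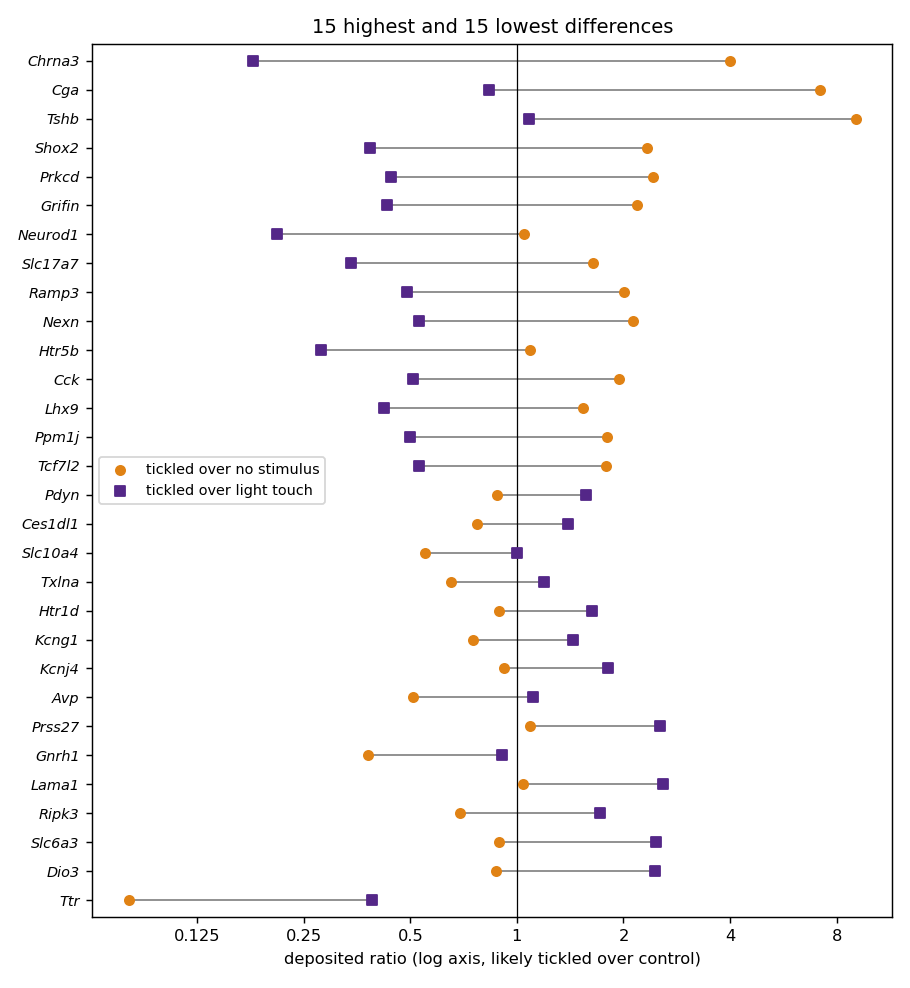
Deposited ratio (log axis) of the 15 genes with the highest and the 15 with the lowest difference, on the no-stimulus array (orange circles) and the light-touch array (purple squares), medians over like probes. A square to the left of its circle means higher in light touch. The gap is widest for Chrna3, from 3.99 to 0.18, and among the low genes for Ttr, from 0.08 to 0.39.

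Thalamus markers were higher in light touch throughout. The list was chosen with earlier results of these data known, so its counts describe it and are no test. Of 19 genes on the list, 17 had a difference, all 17 were above 0, 15 were past 1.5-fold and 13 past 2-fold, with a median of 1.18. In every one, the median ratio over like probes was above 1 against no stimulus and below 1 against light touch. The transcription factor Tcf7l2, which maintains thalamic identity, had ratios of 1.78 and 0.53, and its 3 probes gave 1.13, 1.75 and 1.86. Lef1, its relative in Wnt signalling, had 1.35 and 0.49, and Gbx2, which patterns the thalamus, 1.44 and 0.69. Zic1 had 1.15 and 0.44, and the netrin relative Ntng1, a guide of thalamocortical axons, 1.71 and 0.60. Kit ligand (Kitlg) had 1.41 and 0.55, with probes at 0.77, 1.36 and 1.72. The calcium-binding Necab1, with a difference of 1.18, the signalling regulator Rgs16, at 1.03, the phosphatase subunit Pdp1, at 1.06, the RNA editing enzyme Adarb1, at 0.95, and Slitrk6, at 0.86, were also past 1.5-fold. The lowest was the T-type calcium channel Cacna1g, at 0.16 (ratios 1.07 and 0.96). Its probes disagreed in sign, at -0.08 and 0.40, and the first was above 1 on both arrays (1.07 and 1.13). Only 2 consensus words of Tcf7l2 and Lef1 were searched, CTTTGAA and CTTTGAT on either strand. They occurred in the promoters of 0 of the 12 list members with a RefSeq promoter (250 bases before to 50 after the start, GRCr8), in 6.04% of the promoters of measured genes, in 5.36% of those of genes 2-fold higher and in 8.64% of all promoters. Among hypothalamic transcription factors they occurred in 2 of 14. With so few promoters, 0 of 12 cannot be told from the share over measured genes.

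Epithalamic genes were mixed. Of 15 medial habenula markers 9 were measured, with a median of 0.20 and 4 past 1.5-fold, all higher. Within the middle 80% of probe numbers 5 were left, with a median of 0.070 and 1 past 1.5-fold. The 4 were Chrna3, Htr5b, the G protein subunit Gng8, with ratios of 1.16 and 0.54, and Chrnb4, the nicotinic subunit that assembles with Chrna3, with 1.01 and 0.60. The lowest was the Wnt inhibitor Wif1, at -0.26. Chrna3 and Chrnb4 are neighbours in the genome. Among nicotinic subunits, 7 of 16 were measured, 6 were above 0 and 3 past 1.5-fold. The third was Chrna4, a main brain subunit, with 1.43 and 0.67, and Chrne, the muscle subunit, was lowest at -0.34. All measured probes of Chrna3, Htr5b and Gng8 had numbers in the outermost 20% of the array. Of 16 pineal markers 8 were measured and 7 were above 0, with a median of 0.30. Past 1.5-fold were Neurod1 and Otx2, a transcription factor shared with choroid plexus, with ratios of 1.04 and 0.61. Aanat, the enzyme that sets the melatonin rhythm, was the lowest at -0.13 (ratios 0.97 and 1.06).

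**Figure D3:**
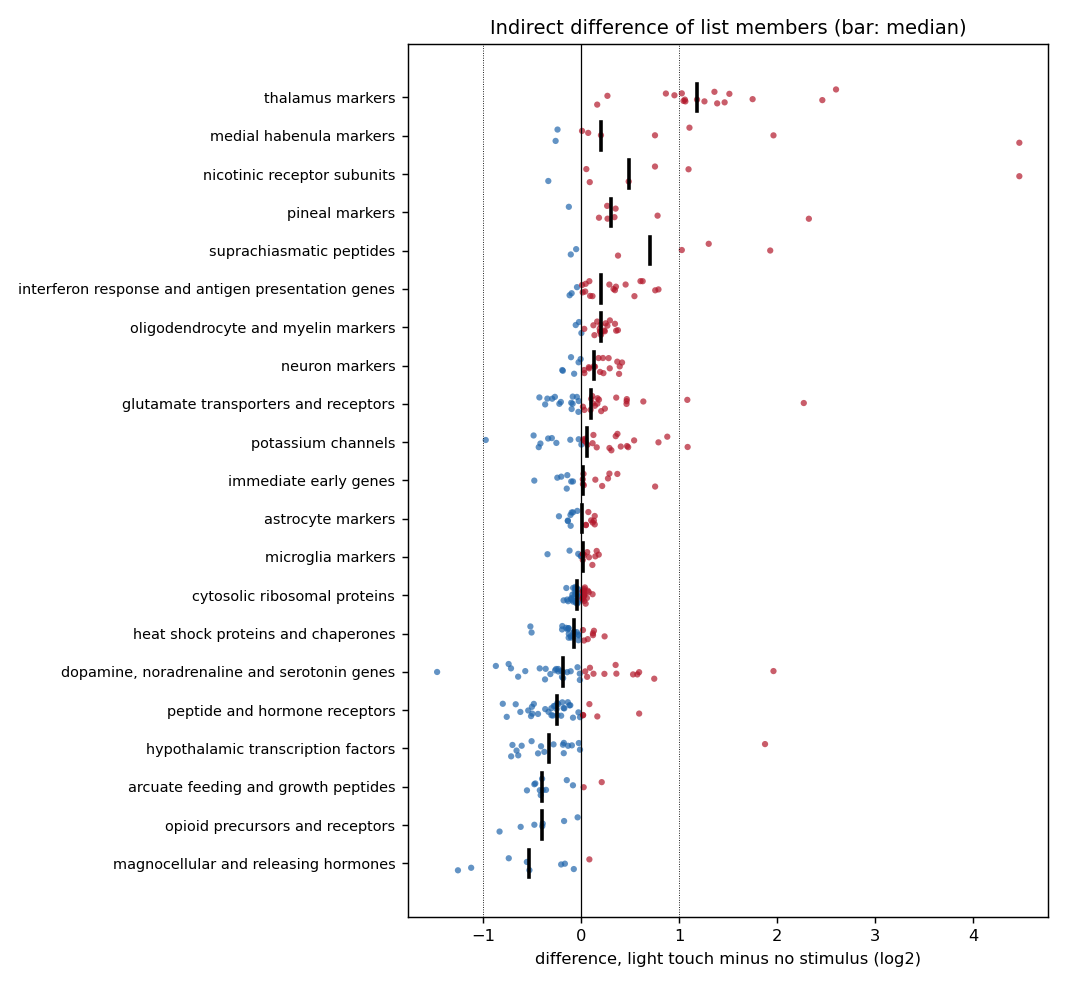
Difference of each measured member (points, red above and blue below 0, log2) of 21 of the 46 gene lists, with the list median as a black bar and dotted lines at 2-fold. The median is 1.18 for thalamus markers and -0.53 for magnocellular and releasing hormones.

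Hypothalamic hormones were on the opposite side. Of the 9 magnocellular and releasing hormone genes measured, 8 were below 0, with a median of -0.53. The 3 past 1.5-fold were Gnrh1, vasopressin (Avp), which conserves water, and oxytocin (Oxt), which drives milk ejection and social behaviour. The probes of Avp gave 0.55 and 0.47 against no stimulus and 1.16 and 1.06 against light touch, and its difference was -1.12, or 2.18-fold lower in light touch. Oxt had ratios of 0.67 and 1.12 and a difference of -0.74, or 1.67-fold lower, from 1 probe. On the no-stimulus array these genes were thus below 1, and on the light-touch array near it. Crh, the stress hormone releasing factor, had 0.85 and 1.25, a difference of -0.56. Secretin (Sct) was the highest of the list, at 0.08. The Gnrh1 ratios of 0.38 and 0.91 gave a difference of -1.26. Within the middle 80% of probe numbers, which leaves out Oxt, the list median was -0.37 over 8 genes, with 2 past 1.5-fold.

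Oxt and Avp are adjacent genes, and their promoters are printed because both were lower. Capitals mark nuclear receptor half-sites (TGACCT or AGGTCA) and the E-box CACGTG, to which clock proteins are known to bind. The window runs from 250 bases before to 50 after the start, in RefSeq sequence of GRCr8. Oxt lies on the plus strand at chr3:138235504-138235803 and Avp on the minus strand at chr3:138248473-138248772, each read along its own strand.
Oxt: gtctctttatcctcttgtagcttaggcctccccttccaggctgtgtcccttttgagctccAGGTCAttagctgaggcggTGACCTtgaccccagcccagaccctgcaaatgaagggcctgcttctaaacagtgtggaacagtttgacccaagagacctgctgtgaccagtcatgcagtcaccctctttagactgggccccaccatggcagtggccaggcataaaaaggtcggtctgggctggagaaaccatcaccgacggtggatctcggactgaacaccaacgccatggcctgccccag
Avp: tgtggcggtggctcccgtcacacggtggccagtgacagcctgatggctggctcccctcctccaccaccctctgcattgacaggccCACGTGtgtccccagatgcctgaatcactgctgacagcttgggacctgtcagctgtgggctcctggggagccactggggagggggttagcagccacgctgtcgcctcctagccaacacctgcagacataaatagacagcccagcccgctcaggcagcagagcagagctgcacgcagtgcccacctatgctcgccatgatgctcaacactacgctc
The Oxt window held 2 half-sites and 0 E-boxes, and the Avp window 0 half-sites and 1 E-box. Half-sites occurred in 15.7% and the E-box in 6.65% of all 27457 promoters, so such matches are common and describe the letters alone.

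Feeding and growth peptides of the arcuate nucleus were lower by less. All 12 were measured, 10 were below 0 and 0 were past 1.5-fold, with a median of -0.40. Cartpt, which curbs feeding, was lowest, with ratios of 1.32 and 1.94 and a difference of -0.56. Pomc, the precursor of melanocortins and beta-endorphin, had 1.62 and 2.13, a difference of -0.39. The neurokinin B gene Tac3 was highest, with 0.97 and 0.84. For Cartpt and Pomc both ratios were above 1, so if the ratios are tickled over control, tickled rats had most, no stimulus less and light touch least. With control over tickled, light touch had most and tickled rats least. Npy and Agrp, named after their values were seen, had differences of -0.48 and -0.41. The median ratio of the list was 0.22 log2 units against no stimulus and 0.65 against light touch.

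Of 6 lateral hypothalamic genes measured, 5 were below 0. Prodynorphin (Pdyn), an opioid precursor, had ratios of 0.88 and 1.57 and a difference of -0.84, and neurotensin (Nts) probes both gave about -0.62. Nptx2, a synaptic pentraxin, was higher instead, with 1.08 and 0.69. All 7 measured opioid precursors and receptors were below 0, with a median of -0.40. Proenkephalin (Penk), which is abundant in striatum too, had 0.82 and 1.26. The delta receptor Oprd1 was nearest 0, at -0.04. Of 6 suprachiasmatic genes measured, 4 were above 0, with a median of 0.70. Rgs16, at 1.03, was among these 4 and is on the thalamus list as well. Vip, the peptide that synchronises clock neurons, had 2.24 and 0.91 and a difference of 1.30, and Cck, made in thalamus and cortex as well, 1.94 and 0.51, whereas the receptor Prokr2 was at -0.11.

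**Figure D4:**
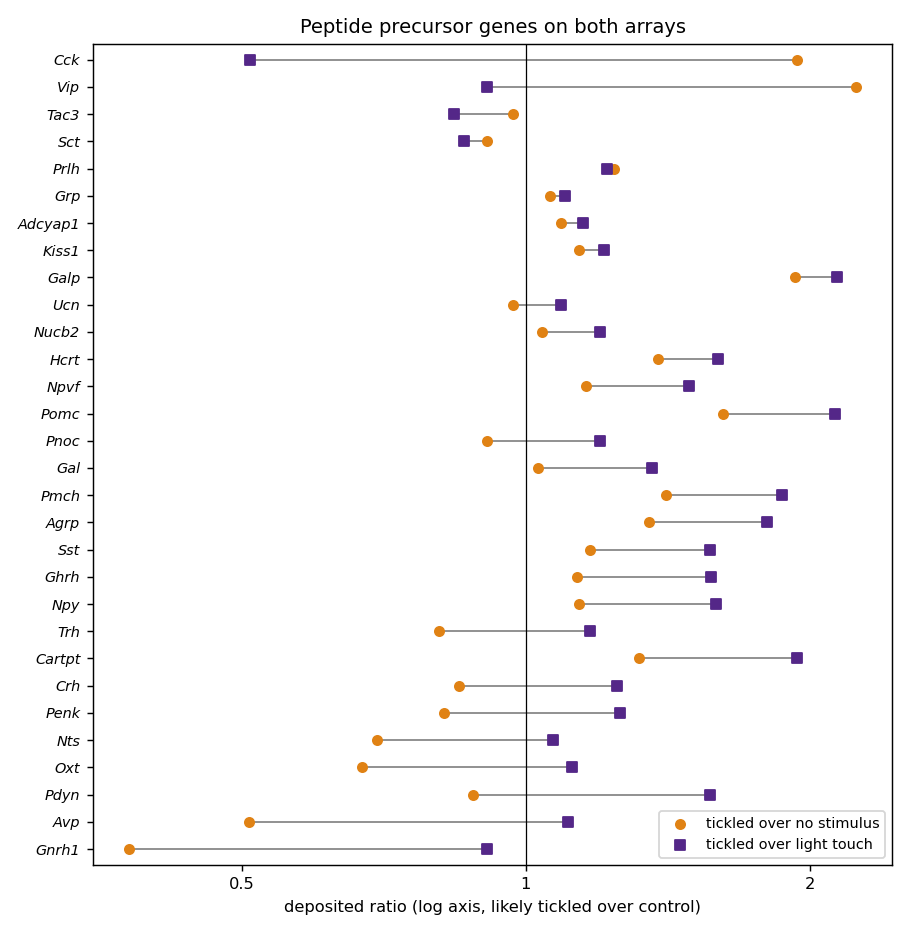
Deposited ratio (log axis) of 30 peptide precursor genes on the no-stimulus array (orange circles) and the light-touch array (purple squares), ordered by difference from highest to lowest. Cck (1.94 and 0.51) and Vip (2.24 and 0.91) have the square on the left, while Gnrh1 (0.38 and 0.91) and Avp (0.51 and 1.11) have it farthest to the right of the circle.

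Transcription factors of the hypothalamus were also lower. Of 25 on the list 18 were measured, and 17 of these were below 0, with a median of -0.33. The 5 past 1.5-fold were Dlx5, of GABA neurons, with ratios of 0.87 and 1.43, Vax1, of the ventral forebrain, with 1.05 and 1.71, Bsx, of arcuate neurons, with 1.34 and 2.12, Otp, which specifies peptide neurons, with 1.03 and 1.61, and Nkx2-1, a master gene of the region, with 0.97 and 1.48. Within the middle 80% of probe numbers 3 were past 1.5-fold. For these 5 genes the ratio on the light-touch array was farther from 1. The 1 factor above 0 was Lhx9, with 1.54 and 0.42 and a difference of 1.87. Lhx9 is made in the developing thalamus and pineal gland as well as in hypothalamus. Mammillary and posterior factors were spread around 0, with a median of 0.01 over 7 and a range from -0.51 (Lmx1a) to 0.37 (Irx3). Their median was -0.21 with the middle 80% of probe numbers.

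Of 7 measured genes of cholinergic and other basal forebrain neurons, 5 were below 0, with a median of -0.74 and a mean of -0.18. Past 1.5-fold were 4 lower genes and 1 higher. The transporter genes of cholinergic neurons on the list, Slc18a3 and Slc5a7, lay on opposite sides of 0, and neither was past 1.5-fold. Lhx8, with ratios of 0.35 and 0.61, the neurotrophin receptor Ngfr, with 0.45 and 0.77, and Lhx6, with 0.50 and 0.85, were below 1 on both arrays and at -0.80, -0.77 and -0.77 in the difference. Isl1, a factor of cholinergic and arcuate neurons, had 0.80 and 1.34, a difference of -0.74. Slc10a4, a vesicular transporter of cholinergic and aminergic neurons and not on that list, had 0.55 on the no-stimulus array and a difference of -0.86. Zic4 was opposite, with ratios of 1.16 and 0.41, a difference of 1.51 and probes at 1.14 and 1.87.

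Peptide and hormone receptors were lower in 31 of 36 measured genes, with a median of -0.25. Past 1.5-fold were Npr3, which clears natriuretic peptides (ratios 1.64 and 2.86), the calcitonin receptor Calcr (0.79 and 1.34, probes -0.75 and -0.77), the prolactin receptor Prlr (0.71 and 1.13) and the orexin receptor Hcrtr2 (0.87 and 1.34). The leptin receptor Lepr was the 1 member past 1.5-fold higher, with 1.52 and 1.01. The glucocorticoid receptor Nr3c1 was at 0.02.

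Monoamine genes lay on both sides. The 5 past 1.5-fold lower were Slc6a3, the serotonin receptor Htr1d (0.89 and 1.63), the vesicular monoamine transporter Slc18a2 (1.02 and 1.71, probes -0.75 and -0.74), the histamine-forming enzyme Hdc (1.10 and 1.81) and the dopamine-forming enzyme Th (1.01 and 1.58). Histamine neurons and several dopamine neuron groups lie in the hypothalamus. On the other side were Htr5b and the adrenergic receptors Adra1d (1.44 and 0.86) and Adra2b. The probes of Adra2b disagreed, with 1.06 on both arrays for the first, and 1.29 and 0.57 for the second, a difference of 1.18. With discordant probes left out, 2 members were past 1.5-fold higher. With the middle 80% of probe numbers, 1 was past 1.5-fold higher and 3 lower. Over 35 measured genes 23 were below 0, with a median of -0.19.

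Transmission genes common to many regions centred near 0, with members far out. The median was -0.06 over 20 GABA genes. The receptor subunits Gabrd (1.58 and 0.57) and Gabra4 (1.44 and 0.56), which form the extrasynaptic receptor of thalamic relay neurons, had differences of 1.47 and 1.36, whereas Gabre was at -0.64, with probes at -0.61 and -0.67. Over 33 glutamate genes the median was 0.09. Besides Slc17a7, the receptor Grm4 (1.46 and 0.69) and the transporter Slc17a6, typical of thalamic and hypothalamic glutamate neurons (probes 0.61 and 0.65), were past 1.5-fold, and Slc17a8 was lowest at -0.43. Among potassium channels Kcnc2 (1.08), Kcnma1 (0.88) and Kcna2 (0.79) were higher and Kcnj4 lower, with a median of 0.06 over 29. Calcium and sodium channels ran from -0.56 (Cacna1h) to 0.46 (Cacnb3). Among 23 synaptic vesicle genes Syt9 (0.83), Cplx1 (0.77) and Sv2b (0.62) were higher and Sv2c (-0.65) lower. Sv2b was at 0.37 when its 3 probes were averaged. Napepld, an enzyme that makes endocannabinoids, had 10 like probes, the lowest at 0.75, and a median of 0.81.

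Some genes were chosen for having all like probes on 1 side of 0, ranked by the probe nearest 0, so that the likeness of their probes was fixed by the choice. Over all genes with several like probes, 20 had probes more than 1 log2 unit apart, Cga, Adra2b and Sv2b among them. The 10 lowest included Pdlim3 (-0.73 and -0.89), the guanine deaminase Gda (3 probes from -0.60 to -0.83), Zfyve9 (-0.63 and -0.80), Chodl (-0.56 and -0.68) and Klhl42 (-0.55 and -0.57). High ones were Cpne4 (1.39 and 1.41), Vav3, a neighbour of Ntng1 (1.17 and 1.20), Sphkap (0.89 and 1.12), Epop (0.91 and 0.95) and Wipf3 (0.86 and 1.06).

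Pituitary and choroid plexus genes turned on few members. Tshb, the beta subunit of thyrotropin, and Cga, the alpha subunit shared by glycoprotein hormones, had differences of 3.07 and 3.11. The probes of Cga disagreed, at 4.58 and 1.63, and the first had a number in the outermost 20%. The other 9 pituitary genes measured lay between -0.49 (Trhr) and 0.28 (growth hormone, Gh1, named after its value was seen), and the list median was 0.03. Among 10 choroid plexus genes measured, Ttr and Prlr were past 1.5-fold lower and Otx2 higher, with a median of -0.09. Ttr therefore stood apart from the rest of its list.

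Oligodendrocyte and myelin genes were above 0 in 18 of 21, with a median of 0.20, led by myelin basic protein (Mbp) at 0.37, and 0 were past 1.5-fold. Neuron markers had a median of 0.13 over 22, from -0.19 (Rbfox3) to 0.41 (the neurofilament Nefl). Medians were 0.00 for 16 astrocyte genes, 0.02 for 15 microglial genes, 0.13 for 17 endothelial and mural genes, 0.16 for 22 meningeal genes, 0.02 for 16 ependymal and tanycyte genes and -0.17 for 9 blood genes. The blood median was -0.26 with the middle 80% of probe numbers and -0.091 with all probes of each array. Striatal markers had a median of -0.11 over 14, with 6 above 0, which became 0.02 with the middle 80% of probe numbers. Cortical and hippocampal markers had -0.26 over 13, and their mean, at 0.01, had the other sign, with Slc17a7 on the list at 2.27, while Kcnv1 was at -0.69. Their median was -0.080 with the middle 80% of probe numbers, with 6 above and 6 below 0. Markers of midbrain and hindbrain aminergic neurons had -0.11 over 7.

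Beside each hypothalamic list that lay below 0 stands the thalamus list, with 17 of 17 above 0 and a range from 0.16 to 2.60. All these lists were chosen with earlier results of these data known. The part of the thalamus markers in the other results was not tested.

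Response genes lay near 0 as groups. Immediate early genes, which neurons switch on within minutes of activity, had a median of 0.02 over 17, with Fos at -0.14 (0.86 and 0.95), Egr3 lowest at -0.48 and Dusp1 highest at 0.75. Stress axis and glucocorticoid response genes had 0.01 over 18, and Pdk4, a metabolic enzyme induced by fasting and glucocorticoids, was at -0.59. Neurotrophins and growth factors had 0.04 over 21, with Bdnf at 0.04 on 2 probes. Clock genes had 0.14 over 16, led by Npas2 at 0.62. Heat shock genes had -0.08 over 26 with 19 below 0, and antioxidant enzymes had -0.02 over 22. Apoptosis regulators had 0.00 over 17, and muscarinic genes 0.08 over 6. Interferon and antigen presentation genes were the response list farthest from 0, with a median of 0.20 and 17 of 20 above 0. Ifit3 (1.57 and 0.91), Ifit2 (probes 0.69 and 0.82), RT1-Da (probes 0.46 and 0.79) and Isg15 (1.20 and 0.79), which are induced by interferons, were past 1.5-fold. With the middle 80% of probe numbers the median of that list was 0.11.

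Reference groups lay close to 0. The 48 cytosolic ribosomal protein genes ran from -0.18 to 0.11, 38 oxidative phosphorylation genes from -0.13 to 0.33 and 13 housekeeping genes from -0.17 to 0.10. Genes of nonneural organs had a median of -0.03 over 9, with Alb at 0.65. The endocannabinoid list had a median of 0.08 over 9.

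Probe numbers stood in for place on the array. Genes with all like probes in the outermost 20% of probe numbers made up 13.5% of genes. They were 17.9% of genes 1.5-fold higher and 28.4% of those 1.5-fold lower. At 2-fold they were 19.1% of the higher genes and 2 of the 8 lower ones, Ripk3 and Dio3. With the local median of each array subtracted, 67 of the 68 higher and all 8 lower genes were still past 2-fold. With the middle 80% of probe numbers, 55 of the 68 were still measured and all 55 were past 2-fold. Of the 68, 59 rested on 1 like probe, and for these the setting either drops the gene or keeps its value. That all 55 stayed past 2-fold was therefore largely fixed in advance and says little about place on the array.

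**Figure D5:**
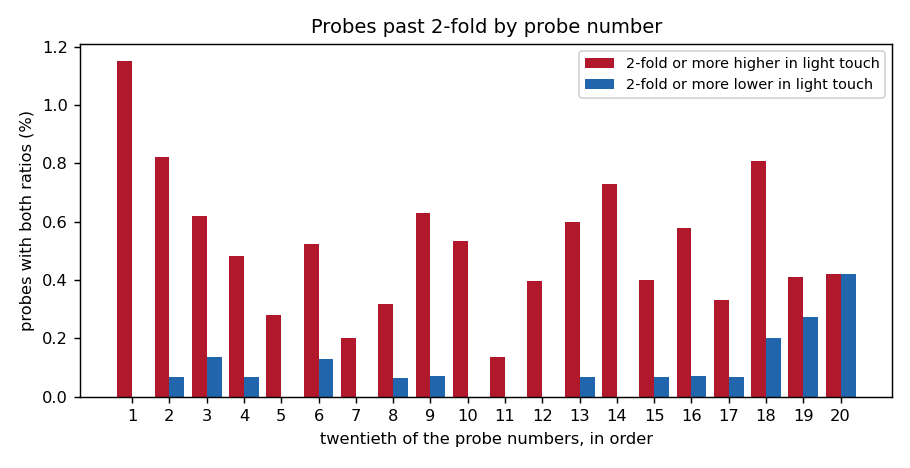
Share of probes with both ratios that were 2-fold or more higher (red) or lower (blue) in light touch, in 20 equal steps of probe number. The share of higher probes is largest in the first step, at 1.15%, and that of lower probes in the last, at 0.42%.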

How the data were processed

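The authors deposited 1 linear ratio per probe and array, to 2 decimals and centred near 1. Image analysis, background correction, normalization, the numerator and the rule for empty values were not given in the sources used here. Per the labels, 500 ng of total RNA was amplified to aminoallyl cRNA and coupled to Cy3 or Cy5. Of 44290 probes, 23535 had 1 gene symbol in the platform annotation, 48 several and 20707 none. The Entrez identifiers of 23488 were found in RefSeq (GRCr8), which changed 1 symbol. A difference was computed for genes with like probes, and 567 genes without one were left out, 347 with values on the no-stimulus array alone, 211 on the light-touch array alone and 9 on both but on different probes. With 1 array per comparison no test was made, and the number of arrays limits precision. Genes were counted at 2-fold and 1.5-fold.

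The members and the 46 gene lists were chosen with earlier results of these data known. Named genes were the 15 highest and 15 lowest differences, the 10 highest and 10 lowest among genes with 2 or more like probes on 1 side of 0, the ends of each list, list members past 1.5-fold, genes at 2-fold in opposite directions and 12 fixed genes. Log2 values were computed from the deposited ratios. The code was tested on simulated arrays with known differences. Python 3.11.15, pandas 2.3.3 and numpy 2.4.6 were used.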

Additional observations from a re-analysis of the deposited data

Results flagged for a closer look

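In 5 genes the ratio was 2-fold or more from 1 on both arrays in opposite directions. If both arrays carried the same tickled RNA, it lay between the other groups whichever way the ratio runs. The genes were chosen by this rule, so that order was fixed by the choice. Tickled RNA had more than no stimulus and less than light touch if the ratios are tickled over control. If not, it had less than no stimulus and more than light touch. The differences were 4.47 for Chrna3, 2.60 for Shox2, 2.46 for Prkcd, 2.34 for Grifin and 2.04 for Ramp3. With 1 array per comparison this contrast was not tested. Shox2 had 2 like probes and the other 4 had 1, and the probe of Chrna3 lay in the outermost 20% of probe numbers.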

How the results depend on the processing

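No paired analysis was possible because each group had 1 array. With genes of 2 or more like probes alone, which leaves 4148 genes, 9 were 2-fold higher and 1 lower, and 45 and 9 were past 1.5-fold. Under that setting, and with few members left, the medians of striatal markers (0.20 over 3), basal forebrain genes (1.51, from Zic4 alone), lateral hypothalamic genes (0.013 over 2) and blood markers (0.066, from 1 gene) had the opposite sign. The same held for 4 lists with medians nearer 0. These were choroid plexus (0.78, from 1 gene), muscarinic (-0.21 over 2), astrocyte (-0.10 over 11) and neurotrophin and growth factor genes (-0.02 over 9). With the middle 80% of probe numbers the striatal median was 0.015. Under each other setting (local median subtracted, middle 80% of probe numbers, mean of like probes, all probes of each array, arrays scaled to one spread, discordant probes left out) these counts stayed within 1.5 times of those given, from 57 to 68 and 6 to 10 at 2-fold. Of the 68 higher genes 59 had 1 like probe, and of the 8 lower genes 7. Averaging like probes or leaving out discordant ones cannot change such a gene. Scaling to one spread changed no list median and kept all 68 and all 8 past 2-fold. These 3 settings are therefore weak checks of the 2-fold counts. Cga was at 1.63 with the middle 80% of probe numbers. No setting measures variation between animals or tells whether the tickled RNA was shared.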

Other observations

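Some genes with like differences are neighbours in the genome. Of the 253 genes past 1.5-fold, 10 pairs were adjacent among protein-coding genes of GRCr8, and in all 10 both members had the same sign, 9 pairs higher and 1 lower. Since 179 of the 253 were higher and 74 lower, many pairs of these genes share a sign in any case, mostly as higher pairs. The pairs were Zic1 with Zic4 (1.39 and 1.51), Chrna3 with Chrnb4 (4.47 and 0.75), Vav3 with Ntng1 (1.19 and 1.51), Ramp3 with Adcy1 (2.04 and 1.13), F13a1 with Nrn1 (1.31 and 1.15), Nek7 with Lhx9 (0.67 and 1.87), Ifit2 with Ifit3 (0.75 and 0.79), Impa2 with Cidea (0.94 and 0.68), Arsa with Shank3 (0.59 and 1.08), and Oxt with Avp (-0.74 and -1.12). Names here were chosen after the values were seen, and the number of such pairs among other genes was not counted.

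Probes without a gene name held differences of the same kind. Of 11771 unnamed probes with both ratios, 57 were 2-fold or more higher in light touch (0.484%) and 11 lower (0.0935%), against 95 (0.538%) and 14 (0.0792%) of the 17675 probes with 1 symbol.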
